A study of Homo sapiens with 39 samples.

Results

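C4-2B cells were treated with the antiandrogen enzalutamide and compared with vehicle after 5 days. The comparison used 6 of the 39 RNA libraries of the series, 3 labelled enzalutamide at 20 µM and 3 labelled DMSO, and both groups belonged to a panel of 21 libraries collected at the same time point. All panel groups, DMSO included, were grown in the same serum-containing RPMI medium, plated on the day before treatment, and carried no genetic change that the labels name. C4-2B is a castration-resistant prostate cancer line derived from LNCaP, so the comparison describes 1 cell line in culture, without stroma or host. The labels do not say whether libraries A, B and C of a group came from separate cultures. The p-values below therefore measure only the spread between libraries of a group, which may be technical. That spread was estimated over all groups of the panel.

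Androgens are steroid hormones that drive genes of secretion, lipid synthesis and growth in luminal prostate cells. Enzalutamide blocks the response to androgens at the level of hormone binding, and androgen-driven genes fall under such treatment, while genes that androgens keep low can rise. RNA from a culture cannot tell fewer cells of a kind from less RNA per cell.

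The 3 DMSO libraries held between 29707578 and 39905703 counts and the 3 enzalutamide libraries between 29391817 and 41208489, as estimated counts per gene deposited by the authors. Levels are given as TMM-scaled CPM, a gene's share of the counts of its library, scaled by a fixed factor after library sizes were adjusted for composition. Within a group, the chi-square per degree of freedom between pairs of replicate libraries ranged from 3.54 to 6.03, above the value near 1 that sampling of reads alone would give. Luminal markers were high in both groups: EPCAM, an epithelial adhesion protein, was at 91.0 CPM in DMSO and 88.2 CPM in enzalutamide, and the prostate transcription factor HOXB13 at 252 and 290 CPM. Most defining markers of other cell types were near 0. No library held more than 2 counts of the basal markers KRT5 and TP63, more than 1 of the fibroblast markers COL1A2, DCN, LUM and PDGFRA or of the endothelial marker PECAM1, or any count of the T cell marker CD3E. The basal keratin KRT14 was low and fell, from 23, 8 and 15 counts to 2, 0 and 3, and the fibroblast collagen COL3A1 was low and rose, from 2, 3 and 1 counts to 11, 19 and 14. Among the immune markers, PTPRC, which encodes CD45, stood at 0, 0 and 3 counts in DMSO and at 29, 14 and 19 in enzalutamide, and LYZ reached 17 counts in DMSO and 2 in enzalutamide. Markers that were not near 0 were COL1A1, with up to 446 counts in a DMSO library and 775 in an enzalutamide library, PDGFRB (76 and 98), the endothelial gene VWF (548 and 534), the macrophage gene CD68 (229 and 128) and the neuroendocrine gene SYP (86 and 70).

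Of 18625 genes tested, 9919 (53.3%) had different levels in enzalutamide and DMSO by the quasi-likelihood test of edgeR (adjusted p below 0.05), fitted on all 21 panel libraries. Higher levels in enzalutamide were found for 5028 genes (27.0%) and lower levels for 4891 (26.3%). Most of these differences were small. The median absolute log2 fold change past the threshold was 0.40, and 5864 of the 9919 genes differed by less than 0.5. A rise of at least 1 on the log2 scale was found for 1310 genes (7.03%) and a fall of that size for 749 (4.02%), whereas at 3 or more the order turned, with 127 genes higher and 183 lower. The groups did not overlap in CPM for 10842 genes (58.2%). Among protein-coding genes 62% passed the threshold, with 4326 higher and 4344 lower, and among lncRNAs 29.4%, with 583 higher and 465 lower.

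**Figure D1:**
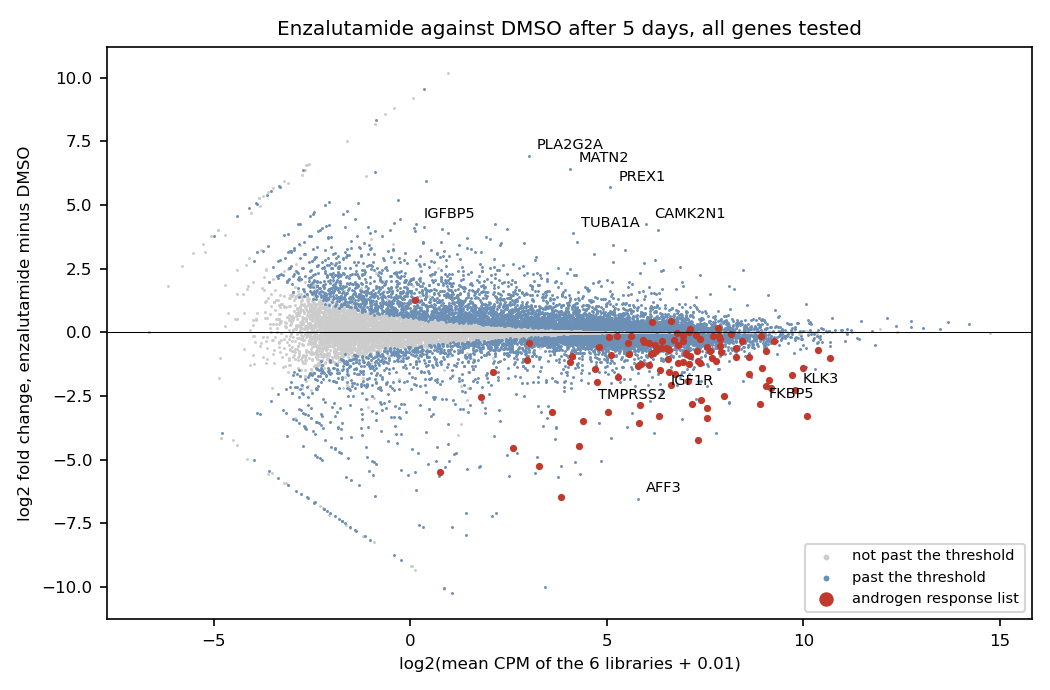
Log2 fold change of enzalutamide against DMSO (y axis) against the mean level of each gene tested (x axis, log2 of CPM plus 0.01), with 1 point per gene. Red points are the 104 tested genes of an androgen response list, of which 96 fell. Fitted fold changes on the straight lines of points at the left come from genes with almost no counts in 1 group and depend on the fit's prior.

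KLK3, TMPRSS2 and FKBP5, which androgens are known to activate, fell. KLK3 encodes prostate-specific antigen (chr19:50854915-50860764 on GRCh38), the serum marker of prostate cancer, and its level was 1507, 1409 and 1434 CPM in DMSO and 329, 295 and 289 CPM in enzalutamide. TMPRSS2, a membrane serine protease, stood at 283, 250 and 219 CPM in DMSO and at 37.2, 35.8 and 35.0 CPM in enzalutamide. FKBP5, a cochaperone of steroid receptors, had 826, 838 and 857 CPM in DMSO and 119, 118 and 124 CPM in enzalutamide. No enzalutamide library of these genes came near a DMSO library. The log2 fold change was -2.25 ± 0.05 (SE) for KLK3, -2.80 ± 0.08 for TMPRSS2 and -2.81 ± 0.03 for FKBP5, with adjusted p of 3.02e-17, 1.01e-13 and 1.92e-39 by edgeR. FOLH1, which encodes prostate-specific membrane antigen, rose by 0.38 ± 0.02.

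**Figure D2:**
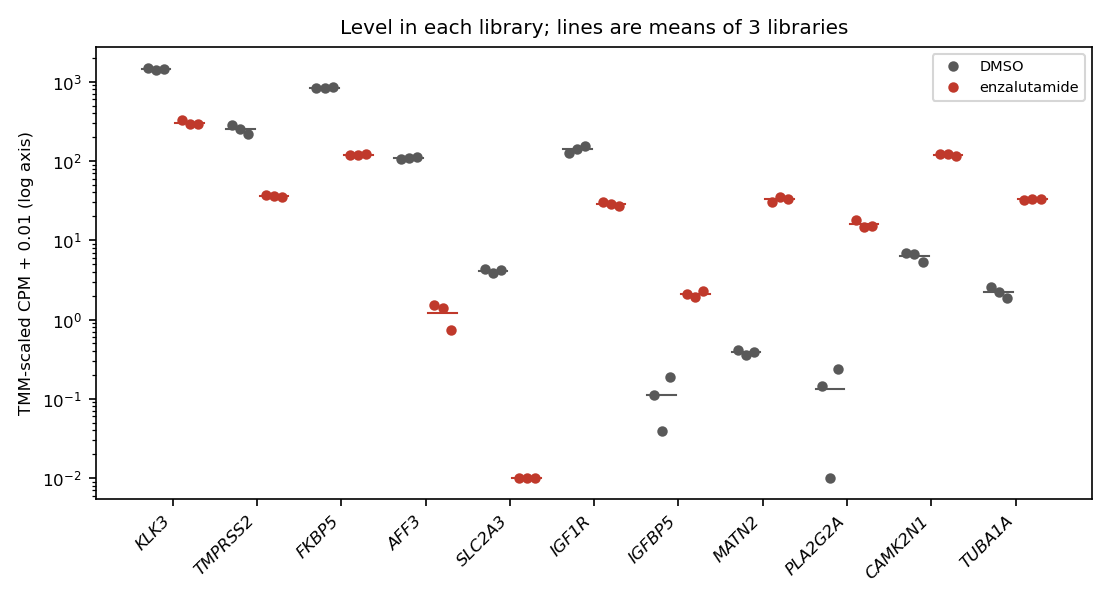
TMM-scaled CPM plus 0.01 (log axis) of 11 genes in each of the 3 DMSO (gray) and 3 enzalutamide (red) libraries, with lines at the means. In these 11 genes the 2 groups do not overlap. KLK3, TMPRSS2, FKBP5, AFF3, SLC2A3 and IGF1R are lower in enzalutamide, and IGFBP5, MATN2, PLA2G2A, CAMK2N1 and TUBA1A are higher.

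The region before the start site of KLK3 is shown because it carries a known androgen response element, and that of KLK2 because it is its close neighbor on chr19 and fell with it. An androgen response element is an inverted repeat of the hexamer AGAACA, spelled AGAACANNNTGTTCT, to which dimers of steroid receptors bind. The 250 bases before the RefSeq start (GRCh38.p14) were scanned for the best match, and the KLK3 sequence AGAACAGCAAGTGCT kept 10 of the 12 fixed letters, at bases -170 to -156 from the start. Counting positions from 1 at the element's left end, it differs by T10A and T13G. The KLK2 sequence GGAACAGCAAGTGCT kept 9 letters and differs by A1G, T10A and T13G. The KLK2 match is below the limit of 10 letters used for the counts that follow, and KLK2 was added after its sequence was seen. KLK2 stood at 105, 98.7 and 99.8 CPM in DMSO and at 13.87, 13.96 and 14.20 CPM in enzalutamide, a fall of 2.85 ± 0.05 on the log2 scale. Capitals mark the best match in each region, which is chr19:50854665-50854914 on the plus strand for KLK3 and chr19:50873189-50873438 on the plus strand for KLK2.
KLK3: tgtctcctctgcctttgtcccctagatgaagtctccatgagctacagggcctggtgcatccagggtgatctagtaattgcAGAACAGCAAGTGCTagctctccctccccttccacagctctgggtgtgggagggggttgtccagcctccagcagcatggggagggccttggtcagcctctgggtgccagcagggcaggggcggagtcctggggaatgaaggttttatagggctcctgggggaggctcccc
KLK2: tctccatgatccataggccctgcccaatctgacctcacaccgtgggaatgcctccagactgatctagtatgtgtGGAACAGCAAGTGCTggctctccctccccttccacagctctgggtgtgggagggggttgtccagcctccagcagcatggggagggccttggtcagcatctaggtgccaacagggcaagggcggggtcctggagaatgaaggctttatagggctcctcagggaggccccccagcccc

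A match of at least 10 letters in this window was rare. It was found in 326 of 27305 RefSeq promoters (1.19%) and in 59 of the 12283 promoters that belong to tested genes (0.48%). Among genes that fell by at least 1 past the threshold, 6 of 459 promoters held it (1.31%), and among those that rose by at least 1, 6 of 815 (0.736%). The hexamer AGAACA or its complement TGTTCT, which also lies within the longer element, was in 3397 of all promoters (12.4%) and in 966 of those of tested genes (7.86%), against 50 (10.9%) and 76 (9.33%) of the same falling and rising genes. Of the 82 genes of the androgen response list with a promoter sequence, 1 held a match of 10 letters, KLK3, and 3 (3.66%) held the hexamer, a lower share than among tested genes. These are descriptions of 1 window and were not tested. The 3 further sequences show matches at genes that moved in either direction. PCSEAT, a long noncoding RNA named for prostate cancer, had 20, 28 and 33 counts in DMSO and 0, 1 and 0 in enzalutamide, at least 9.60-fold lower at 3 counts per library. TRIM63, a muscle ubiquitin ligase, had 14, 11 and 10 counts in DMSO and 4, 0 and 2 in enzalutamide, with a log2 fold change of -2.60 ± 0.66. SLITRK6, a neuronal membrane protein also found on epithelial tumors, rose from 16.98, 19.33 and 19.12 CPM to 50.6, 49.9 and 50.8 CPM. The PCSEAT element differs by A1G and C5T (chr21:41580225-41580474, plus strand), that of TRIM63 by A1T (chr1:26067631-26067880, minus strand) and that of SLITRK6 by G2T and T13A (chr13:85799420-85799669, minus strand).
PCSEAT: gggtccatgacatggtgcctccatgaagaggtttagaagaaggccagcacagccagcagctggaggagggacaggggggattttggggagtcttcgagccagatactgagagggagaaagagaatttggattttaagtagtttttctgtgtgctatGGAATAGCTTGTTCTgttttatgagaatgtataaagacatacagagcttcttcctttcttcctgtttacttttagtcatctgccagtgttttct
TRIM63: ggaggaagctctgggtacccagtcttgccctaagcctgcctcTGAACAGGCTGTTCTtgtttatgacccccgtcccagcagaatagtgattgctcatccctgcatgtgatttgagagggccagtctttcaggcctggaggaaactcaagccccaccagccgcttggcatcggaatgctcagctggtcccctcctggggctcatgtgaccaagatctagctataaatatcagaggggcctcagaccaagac
SLITRK6: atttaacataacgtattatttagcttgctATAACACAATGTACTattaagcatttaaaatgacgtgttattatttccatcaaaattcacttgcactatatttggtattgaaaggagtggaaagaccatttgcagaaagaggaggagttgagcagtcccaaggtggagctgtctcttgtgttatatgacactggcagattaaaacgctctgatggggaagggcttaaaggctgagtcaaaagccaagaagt

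Of the 14 tested genes of kallikreins and secreted prostate proteins, 12 fell (85.7%, against 26.3% of all genes) and 1 rose (7.14%), with a median log2 fold change of -1.89 against 0.02 over all genes tested. KLK4 fell by 1.32, KLK15 by 1.75, AZGP1, a secreted zinc-binding glycoprotein, by 1.91 and MSMB, a major seminal plasma protein, by 1.88 on the log2 scale. PIP, prolactin-induced protein, held 15, 20 and 22 counts in DMSO and 0 in each enzalutamide library, at least 6.80-fold lower at 3 counts per library. ACP3, prostatic acid phosphatase, was the exception and rose from 16.8, 16.7 and 15.5 CPM to 32.6, 32.6 and 32.9 CPM, a log2 fold change of 1.01 ± 0.05. The acute-phase genes ORM1 and ORM2 are near copies, so the split of reads between them is uncertain, and both fell, with log2 fold changes of -3.12 and -3.20.

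In the broader androgen response list, 96 of 104 tested genes fell (92.3%, against 26.3% of all genes) and 5 rose (4.81%), and the median log2 fold change was -0.95. Some of its largest falls were in SLC45A3 (prostein, a sugar transporter), from 315, 303 and 297 CPM to 16.7, 17.3 and 14.9 CPM, a log2 fold change of -4.23 ± 0.04. HPGD, which degrades prostaglandins, went from 94, 109 and 139 counts to 3, 4 and 1, and STEAP4, a metalloreductase, fell by 4.55 ± 0.17 on the log2 scale. TARP lies within the T cell receptor gamma locus on chr7 and overlaps other gene models there, so its count of 758, 1035 and 1126 in DMSO and 9, 14 and 13 in enzalutamide may include reads of TRGC1 and TRGC2. Among those that rose were HSD17B14 (1.25), ARID5B (0.44), PTK2B (0.42) and CCND1 (0.16 on the log2 scale).

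Prostate lineage factors and coregulators moved in both directions, 9 of 19 higher and 9 lower (47.4% each, against 27.0% and 26.3% of all genes), with a median of -0.15, or -0.10 with total-count scaling and -0.02 with a filter at CPM of at least 1 in 3 libraries. SPDEF, an epithelial ETS factor, fell from 143, 139 and 143 CPM to 48.2, 48.5 and 48.1 CPM. ELK4 fell by 1.19 and KLF5 by 0.89 on the log2 scale. GATA2, a zinc finger pioneer factor, rose from 68.3, 73.4 and 75.8 CPM to 151, 161 and 155 CPM, a log2 fold change of 1.10 ± 0.03. The corepressor TLE3 rose by 0.92 ± 0.04, the coactivators NCOA3 and NCOA2 by 0.69 and 0.52, and the pioneer factor FOXA1 by 0.13 ± 0.02. Coactivator NCOA1 fell by 0.50. Among 33 tested nuclear receptors, 16 rose (48.5%, against 27.0% of all genes) and 9 fell (27.3%, near the 26.3% of all genes). NR2F1, an orphan receptor, rose from 23.7, 25.8 and 29.0 CPM to 138, 138 and 146 CPM, and PGR, the progesterone receptor, from 7, 13 and 8 counts to 41, 48 and 56. The thyroid hormone receptor THRB fell by 1.99 and the retinoic acid receptor RARB by 1.77 on the log2 scale. The glucocorticoid receptor NR3C1 was not tested because its counts reached only 3 in DMSO and 11 in enzalutamide.

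The largest rises were in genes that were low or nearly silent in DMSO. PLA2G2A, a secreted phospholipase (chr1:19975431-19980416), had 4, 0 and 9 counts in DMSO and 539, 627 and 631 in enzalutamide, a log2 fold change of 6.94 ± 0.23 (edgeR, adjusted p = 1.29e-19). PREX1, an exchange factor for the GTPase Rac (chr20:48624252-48827999), rose from 1.05, 1.25 and 1.47 CPM to 59.3, 70.4 and 69.0 CPM, a log2 fold change of 5.70 ± 0.12. CAMK2N1, an inhibitor of the calcium-dependent kinase CaMKII (chr1:20482391-20486210), rose from 6.83, 6.75 and 5.37 CPM to 123, 121 and 117 CPM. In these 3 genes the lowest enzalutamide library was many times above the highest DMSO library. COLEC12, a scavenger receptor, rose by 4.03 ± 0.05 on the log2 scale and reached 150, 148 and 148 CPM. The alpha-tubulin TUBA1A rose by 3.91 ± 0.10, the LIM homeobox factor LHX9 by 3.56 ± 0.10, the neural adhesion protein CNTN5 by 4.26 ± 0.15, and the phospholipase PLD1 by 3.52 ± 0.12. ROR2, a receptor tyrosine kinase for Wnt5a, went from 1, 0 and 0 counts to 33, 48 and 37, at least 11.8-fold higher at 3 counts per DMSO library, and CCDC83 from 1, 2 and 1 to 35, 81 and 64, at least 17.4-fold higher.

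At the other end, AFF3, a scaffold protein of transcription elongation complexes (chr2:99545419-100192428), fell from 107, 109 and 111 CPM to 1.53, 1.37 and 0.718 CPM, a log2 fold change of -6.53 ± 0.10 (edgeR, adjusted p = 4.82e-27). In all, 16 genes held at least 30 counts in every DMSO library and at most 3 in every enzalutamide library. ADAM7, a metalloprotease-like protein of the male reproductive tract, went from 629, 735 and 854 counts to 1, 1 and 0, at least 265-fold lower at 3 counts per library. SLC2A3, the glucose transporter GLUT3, went from 129, 131 and 165 counts to 0 in each library, at least 51.0-fold lower. Its near-identical copy SLC2A14 held at most 4 counts in DMSO and 0 in enzalutamide. AKR1D1, which reduces the steroid ring, was at least 51.3-fold lower, the ciliary protein SPAG17 at least 103-fold lower, and the growth hormone-releasing hormone receptor GHRHR at least 12.9-fold lower. PNLIP, pancreatic lipase, and ADH1C, an alcohol dehydrogenase, also reached 0 in the 3 enzalutamide libraries, from 38, 71 and 66 counts and from 50, 56 and 43 counts. SLX1B had 178, 188 and 171 counts in DMSO and 6, 0 and 8 in enzalutamide. Its value is uncertain because SLX1A is an identical copy, with at most 275 counts in DMSO and 388 in enzalutamide. The value of the pseudogene NPIPP1 is uncertain too, but NPIPP1 rose. It lost its call in several settings, among them the replicate block (edgeR, adjusted p = 0.0602).

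Measured per kilobase of exon, the largest losses of level outside the mitochondrial genome included KLK3 (313 to 65.6 CPM per kb), RASSF3 (436 to 159), GAPDH (1240 to 1038), ELOVL5 (248 to 55.1), H1-2 (290 to 114), MPC2 (237 to 71.1) and ATP5F1B (665 to 515 CPM per kb). RASSF3 is a Ras-association scaffold and MPC2 a subunit of the mitochondrial pyruvate carrier. RASSF3 fell by 1.46 ± 0.03 and MPC2 by 1.74 ± 0.03 on the log2 scale. GAPDH, often used as a reference transcript, fell by 0.26.

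Components of the insulin-like growth factor (IGF) pathway moved in both directions. IGF1R is the receptor tyrosine kinase that binds IGF1 and signals through the adaptors IRS1 and IRS2, and IGFBPs bind the ligands outside the cell. IGF1R (chr15:98648539-98964530) was at 127, 140 and 154 CPM in DMSO and at 29.9, 28.3 and 27.2 CPM in enzalutamide, a log2 fold change of -2.31 ± 0.08. The ligand IGF1 fell from 57.9, 67.4 and 66.9 CPM to 16.84, 16.42 and 17.02 CPM. IRS1 fell by 1.88 ± 0.13 and IRS2 by 1.42 ± 0.09 on the log2 scale. The groups did not overlap for any of these 4 genes, whereas the insulin receptor INSR lay at 34.2 to 35.8 CPM in DMSO and 35.2 to 37.3 CPM in enzalutamide, with a log2 fold change of 0.04 ± 0.05 (edgeR, adjusted p = 0.570). The 4 binding proteins that were tested rose, and IGFBP1, IGFBP6 and IGFBP7 were too low to test. IGFBP3 went from 6.62, 8.32 and 9.90 CPM to 71.9, 94.9 and 71.9 CPM, IGFBP5 from 3, 1 and 7 counts to 63, 80 and 94, IGFBP4 from 5, 3 and 5 counts to 21, 30 and 21, and IGFBP2 by 0.53 ± 0.05 on the log2 scale. GRB10, an adaptor that restrains insulin and IGF1 receptors, rose from 309, 291 and 275 CPM to 807, 787 and 802 CPM. Over the whole list, 8 of 18 tested genes rose (44.4%, against 27.0% of all genes) and 7 fell (38.9%, against 26.3%), with a median of 0.28, or 0.15 without DMSO library A and 0.14 without enzalutamide library C.

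Steroid enzymes moved in both directions. The UGT2B enzymes attach glucuronic acid to androgens, which inactivates them, and their genes are closely related copies on chr4, so reads shared between them are a source of uncertainty. UGT2B28 fell from 53.5, 55.7 and 58.7 CPM to 2.07, 1.51 and 1.63 CPM, and UGT2B11 from 85.6, 84.6 and 82.9 CPM to 5.50, 6.35 and 7.37 CPM. In contrast, UGT2B17 rose from 6.55, 6.29 and 6.21 CPM to 26.4, 32.2 and 30.5 CPM and UGT2B15 from 18.1, 17.5 and 18.5 CPM to 42.3, 47.1 and 42.9 CPM. All 4 had no overlap between groups. CYP11A1, the enzyme that starts steroid synthesis from cholesterol, fell from 76, 96 and 103 counts to 3, 1 and 4, and HSD3B1, which converts precursors toward androstenedione, rose from 2, 5 and 7 counts to 23, 41 and 34, both low. SRD5A1, a 5-alpha reductase, fell by 0.37 ± 0.04. In all, 6 of 26 tested steroid enzymes rose (23.1%, against 27.0% of all genes) and 10 fell (38.5%, against 26.3%).

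**Figure D3:**
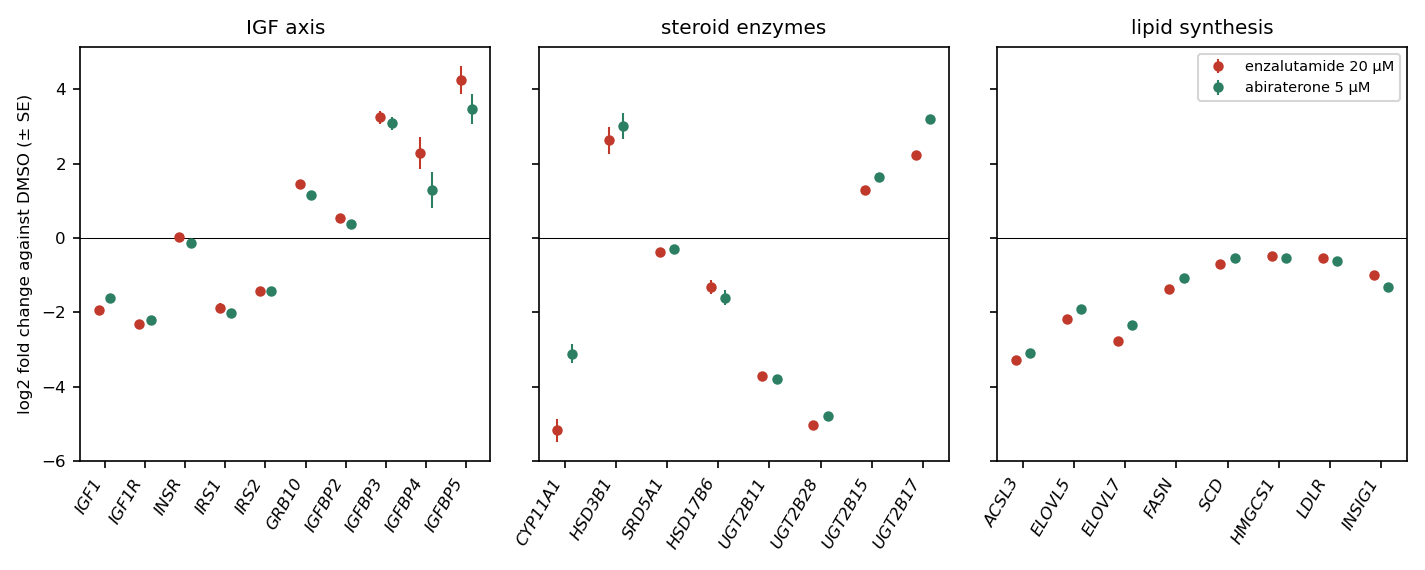
Log2 fold change against DMSO (± SE) of 10 IGF axis, 8 steroid enzyme and 8 lipid synthesis genes in enzalutamide (red) and abiraterone (green), each from 3 libraries. IGF1R, IRS1, UGT2B28 and ACSL3 lie below 0, IGFBP3 and UGT2B17 above. Both series use the same DMSO libraries, and the doses differ (20 and 5 µM).

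Fatty acid synthesis genes moved in both directions. ACSL3, which activates fatty acids, went from 1973, 2020 and 1991 CPM to 207, 200 and 207 CPM, a log2 fold change of -3.28 ± 0.03 (edgeR, adjusted p = 1.19e-42). The elongases ELOVL2, ELOVL7 and ELOVL5 fell by 4.18, 2.76 and 2.17 on the log2 scale, and fatty acid synthase FASN from 1535, 1475 and 1645 CPM to 572, 627 and 590 CPM. Another elongase, ELOVL6, rose by 1.78 ± 0.09, the desaturase SCD5 by 2.57 ± 0.16 and the acyl-CoA synthetase ACSL5 by 2.33 ± 0.34, while SCD fell by 0.71. Of 28 tested fatty acid synthesis genes, 16 fell (57.1%, against 26.3% of all genes) and 9 rose (32.1%, near the 27.0% of all genes). Cholesterol synthesis was more uniform, with 22 of 26 tested genes lower (84.6%), 3 higher (11.5%) and a median of -0.51. STARD4, a sterol carrier, fell by 1.98 on the log2 scale. TM7SF2 rose by 1.07 ± 0.04. Among polyamine genes SAT1, which acetylates polyamines, fell from 165, 160 and 153 CPM to 38.5, 37.3 and 37.6 CPM, and the synthesis enzymes SMS, SRM, ODC1 and AMD1 fell by 1.02, 0.67, 0.50 and 0.32 on the log2 scale. In that list 8 of 17 fell (47.1%) and 5 rose (29.4%, near the 27.0% of all genes).

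Genes of glycolysis and hypoxia fell in 23 of 36 cases (63.9%, against 26.3% of all genes) and rose in 6 (16.7%, against 27.0%), with a median of -0.26. HK2 (hexokinase), LDHA (lactate dehydrogenase) and the transporter SLC2A1 fell by 1.08, 0.81 and 0.64 on the log2 scale. ENO2, a neuronal enolase, rose from 2.04, 2.10 and 2.10 CPM to 16.7, 16.0 and 15.6 CPM. The mitochondrial genome stood apart from nuclear genes of the same complexes. Its 13 proteins had a median of 0.32, 10 rose (76.9%) and 0 fell by edgeR (1 fell in the fit of the 2 groups alone), and the 3 not past the threshold were MT-ND1 (0.13), MT-ND2 (0.01) and MT-ND6 (-0.20). MT-ND5 rose from 3651, 3698 and 3360 CPM to 5627, 4967 and 5303 CPM. MT-RNR1, the small ribosomal RNA of the same genome, fell by 0.50 ± 0.04, and MT-RNR2 had a log2 fold change of -0.03 ± 0.02 (edgeR, adjusted p = 0.265). Libraries were made by mRNA capture, and the share of counts from the mitochondrial genome was 9.68% to 10.1% in DMSO and 11.3% to 12.3% in enzalutamide. Of 81 tested nuclear genes of the respiratory chain, 52 fell (64.2%) and 2 rose (2.47%), with a median of -0.15. With total-count scaling 43 fell, 8 rose and the median was -0.10, and without DMSO library C or enzalutamide library B 1 rose. The 2 that rose were NDUFB4 (0.16) and COX7C (0.10).

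All 30 tested genes of MYC and ribosome biogenesis fell, with NOP16 at -0.63 and a median of -0.33 on the log2 scale, and MYC itself went from 153, 137 and 128 CPM to 105, 92.5 and 97.3 CPM. Of 37 aminoacyl-tRNA synthetases 26 fell (70.3%) and 4 rose (10.8%), and of 32 unfolded protein response genes 26 fell (81.2%) and 3 rose (9.38%), against 26.3% and 27.0% of all genes. Cytosolic ribosomal proteins were mixed, with 21 of 82 higher (25.6%, near the 27.0% of all genes), 15 lower (18.3%) and a median of 0.01. Their direction rests on the scaling, since with total counts 42 rose and 4 fell. Without DMSO library C 11 rose, and without a filter on low counts 7 fell. Replication-dependent histones, whose RNAs mostly lack poly(A) tails and are measured here after mRNA capture, fell in 20 of 38 cases (52.6%) and rose in 1 (2.63%), with a median of -0.54.

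**Figure D4:**
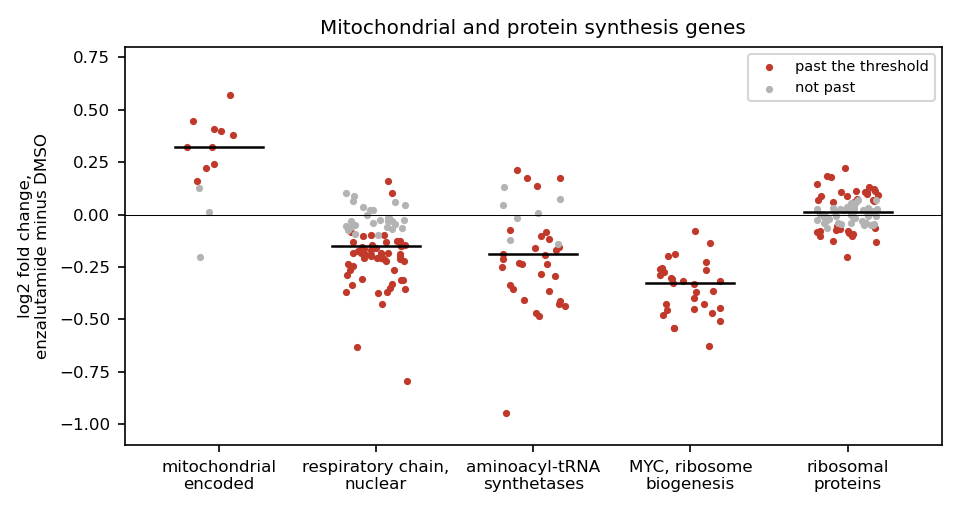
Log2 fold change of enzalutamide against DMSO for each tested gene of 5 lists (points, horizontal jitter only; red past the threshold, gray not), with lines at the medians of 0.32, -0.15, -0.19, -0.33 and 0.01 from left to right. RPL3L, a muscle form of a ribosomal protein with 74, 54 and 93 counts in DMSO and 1, 0 and 2 in enzalutamide, lies below the axis.

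MKI67, a proliferation marker, was at 227, 272 and 301 CPM in DMSO and 247, 257 and 264 CPM in enzalutamide, with a log2 fold change of -0.06 ± 0.09 (edgeR, adjusted p = 0.605). Of 43 S phase genes 7 rose (16.3%) and 13 fell (30.2%), with a median of -0.04, and of 54 G2/M genes 18 rose (33.3%) and 8 fell (14.8%), with a median of 0.06. Over all genes 27.0% rose and 26.3% fell. With total-count scaling the S phase median was 0.01 and 31 G2/M genes rose, and without DMSO library C the S phase median was 0.01, with 10 higher and 10 lower. Of 32 cyclins, CDKs and CDK inhibitors 9 rose (28.1%) and 7 fell (21.9%), or 4 without DMSO library C. CDK6 fell by 1.08 ± 0.11 and TOP2A rose by 0.35 ± 0.03. CDKN1A, the p53-activated inhibitor p21, had 58.2, 57.3 and 46.8 CPM in DMSO and 58.9, 62.8 and 61.5 CPM in enzalutamide, a log2 fold change of 0.18 ± 0.06 (edgeR, adjusted p = 0.00983), which missed the threshold in the fit of the 2 groups alone (adjusted p = 0.103) and without DMSO library C (0.0719). Other p53 targets rose more, among them CYFIP2 by 1.96, PLK3 by 1.62 and the death receptor FAS by 1.28, and the list had 22 of 34 higher (64.7%) and 8 lower (23.5%). In apoptosis genes, BMF rose by 1.22 and BCL2 by 0.67, and 16 of 31 rose (51.6%) and 6 fell (19.4%).

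In homologous recombination, whose loss sensitizes to PARP inhibitors, 8 of 37 tested genes rose (21.6%, against 27.0% of all genes) and 7 fell (18.9%, against 26.3%), with a median of 0.02. With total-count scaling 13 rose and 4 fell, and without DMSO library A 5 rose and 8 fell, and without enzalutamide library C 5 rose and 6 fell. BARD1, the partner of BRCA1, rose from 73.3, 82.5 and 83.3 CPM to 173, 176 and 168 CPM, a log2 fold change of 1.11 ± 0.04 (edgeR, adjusted p = 1.51e-22), and ATR, a kinase of replication stress, fell by 0.43 ± 0.04. BRCA1 had overlapping groups and a log2 fold change of 0.13 ± 0.05 (adjusted p = 0.0352), which lost its call without DMSO library A (0.07, adjusted p = 0.238) and without enzalutamide library B or C (adjusted p = 0.0951 and 0.112). BRCA2 was at 0.01 ± 0.10 (adjusted p = 0.924), PALB2 at 0.07 ± 0.05 (0.207) and PARP2 at 0.02 ± 0.05 (0.736). ATM fell by 0.19 ± 0.06 (adjusted p = 0.00817), with overlapping groups, and missed the threshold with total-count scaling (adjusted p = 0.0555) or without DMSO library B or C (0.0570 and 0.0502). PARP1 fell by 0.12 ± 0.02. In the PARP family and ADP-ribose turnover 11 of 23 rose (47.8%) and 5 fell (21.7%). The interferon-induced members PARP14, PARP10, PARP12 and PARP9 rose by 1.15, 0.67, 0.37 and 0.36, and PARP3 rose by 0.84.

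Interferon and antigen presentation genes rose in most cases. Of 50 tested interferon response genes 28 rose (56%, against 27.0% of all genes) and 4 fell (8%, against 26.3%), led by GBP3 (4, 0 and 3 counts to 21, 23 and 22), OASL (2.04 on the log2 scale) and IRF1 (1.61 ± 0.16). HERC5, MX2, HERC6 and IFITM2 fell. In the MHC list 14 of 24 rose (58.3%) and 3 fell (12.5%), and the class I transactivator NLRC5 rose by 1.91 ± 0.21 on the log2 scale. The shared light chain of class I molecules, B2M, went from 205, 194 and 190 CPM to 122, 116 and 118 CPM, a log2 fold change of -0.73 ± 0.03. Of the immune markers, PTPRC was higher beside these genes, CD68 and LYZ were lower and CD3E was at 0, and their part in the result was not tested.

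Lists of adhesion, guidance and Wnt genes had higher shares of rises than the 27.0% over all genes. Of 56 tested axon guidance genes 38 rose (67.9%) and 8 fell (14.3%, against 26.3% of all genes), with a median of 0.56. SEMA3C, a semaphorin, rose from 25.3, 27.5 and 27.2 CPM to 143, 149 and 147 CPM, whereas SEMA6D fell by 3.69 on the log2 scale and SEMA3E was at least 4.10-fold lower, with 11, 10 and 13 counts in DMSO and 1, 0 and 1 in enzalutamide. In collagens, laminins and integrins 28 of 58 rose (48.3%) and 8 fell (13.8%). COL5A1 rose from 0, 4 and 10 counts to 78, 81 and 112 and ITGB4, an epithelial integrin, from 72, 74 and 60 to 402, 524 and 479 counts, whereas the laminin chain LAMA1 fell from 24.7, 27.9 and 30.2 CPM to 1.201, 0.543 and 0.575 CPM. The median of that list was 0.50, or 0.34 with genes at 3 counts or fewer in a group set to their bounds. Among cadherins and protocadherins 27 of 54 rose (50%) and 6 fell (11.1%), with a median of 1.02, and the protocadherin members share exons or close sequence. CDH1, E-cadherin, rose from 532, 533 and 511 CPM to 833, 790 and 813 CPM, and CDH6 from 0 counts in each DMSO library to 9, 12 and 11. Wnt genes rose in 25 of 39 cases (64.1%) and fell in 5 (12.8%, or 3 genes with total-count scaling or without enzalutamide library A or B), including LEF1 (1.53 ± 0.12) and the antagonist DKK1, from 1, 0 and 0 counts to 11, 13 and 13.

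**Figure D5:**
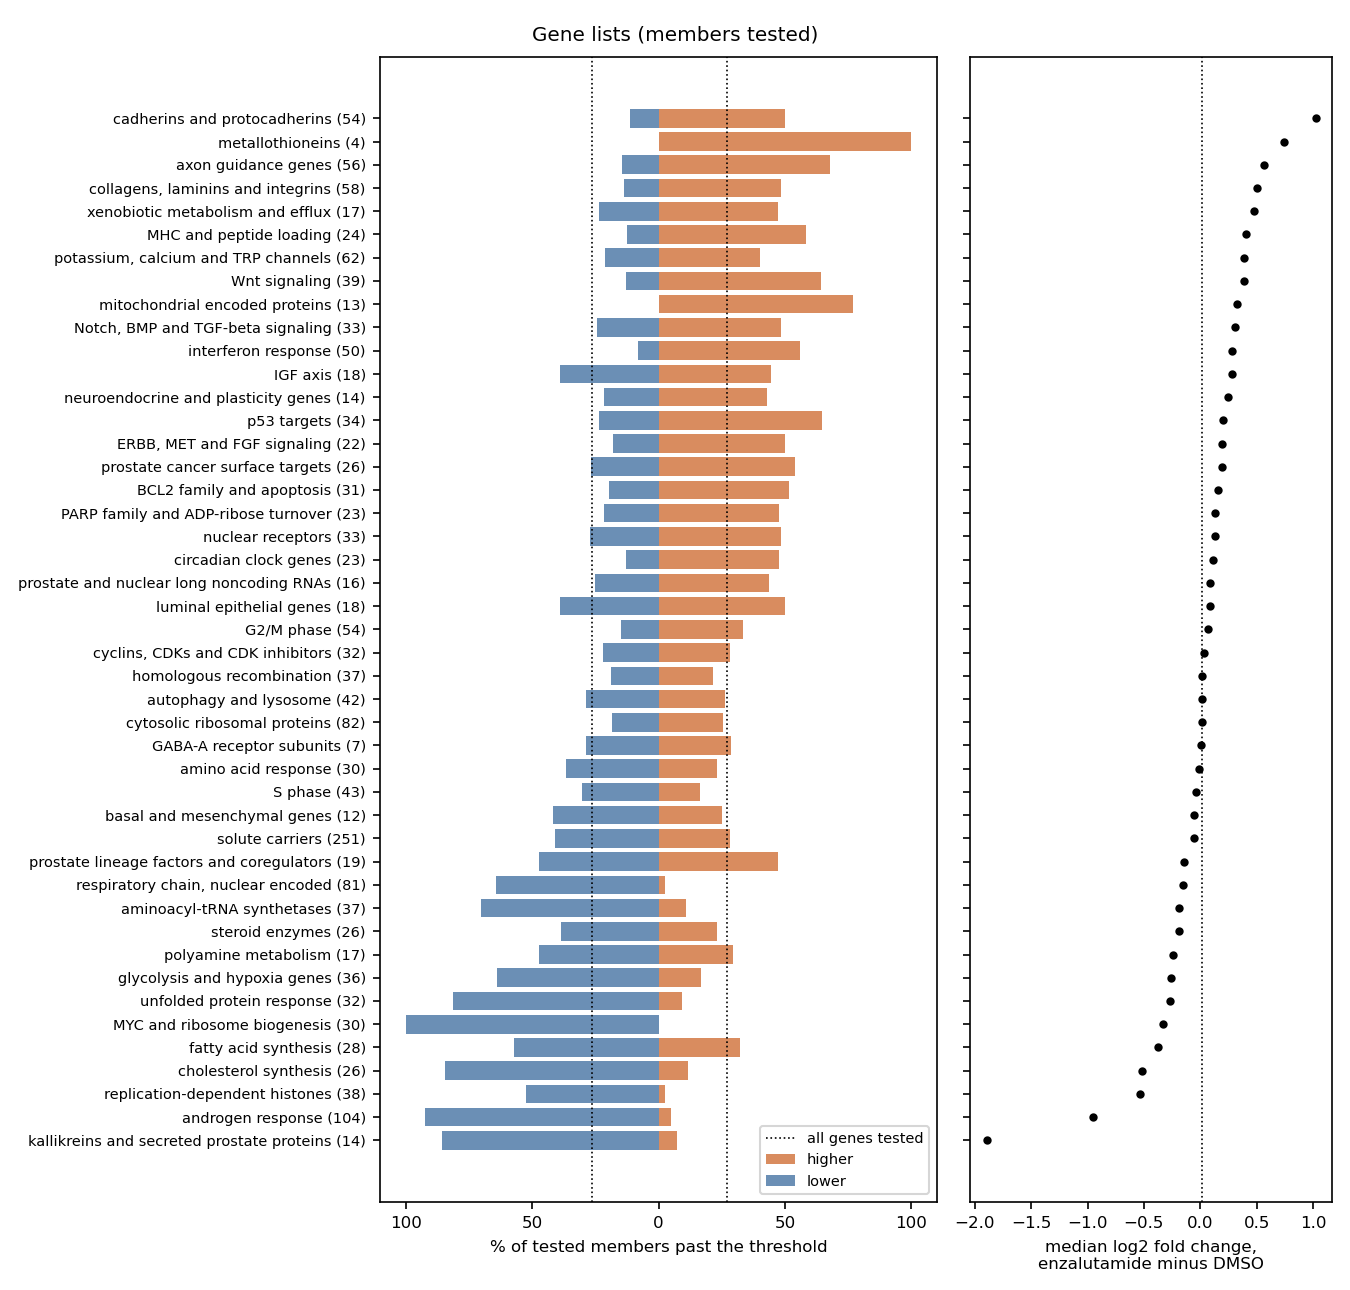
Share of tested members of 45 gene lists that were higher (orange) or lower (blue) in enzalutamide than in DMSO past the threshold (left, percent), and the median log2 fold change of each list (right). Dotted lines are the same over all 18625 genes tested (27.0% higher, 26.3% lower, median 0.02); kallikreins lie lowest and cadherins highest by median.

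Growth factor receptors and ligands differed by member. MET, the hepatocyte growth factor receptor, rose from 7.37, 7.92 and 8.05 CPM to 20.3, 22.5 and 20.1 CPM. ERBB2 rose by 0.53 ± 0.03 and EGFR fell by 0.37 ± 0.04. FGF13 rose by 3.15 ± 0.17, and in this list 11 of 22 rose (50%) and 4 fell (18.2%), against 27.0% and 26.3% of all genes. In Notch, BMP and TGF-beta genes 16 of 33 rose (48.5%) and 8 fell (24.2%, near the share of all genes), including NOTCH3 (1.77), BMP7 (1.94) and JAG1 (1.25) upward and BMPR1B (-3.46) and PMEPA1 (-3.35) downward. Of 18 tested luminal genes 9 rose (50%) and 7 fell (38.9%), and of 12 basal and mesenchymal genes 3 rose (25%) and 5 fell (41.7%). With a filter at CPM of at least 1 in 3 libraries, 2 of 7 basal and mesenchymal genes rose and 3 fell. In the fit of the 2 groups alone, 2 of 8 rose and 2 fell. Among epithelial genes, CD24 rose from 2.82, 2.45 and 2.56 CPM to 12.94, 12.85 and 13.02 CPM, and ELF3 and OCLN rose by 1.98 and 1.52, while keratins KRT19 and KRT18 fell by 1.15 and 0.61. SNAI2, a repressor of epithelial genes, fell from 363, 474 and 453 counts to 19, 11 and 23, and LOX, which crosslinks collagen, from 670, 678 and 611 to 42, 68 and 63. FN1 rose by 0.93 ± 0.04. Of 14 tested neuroendocrine and plasticity genes 6 rose (42.9%) and 3 fell (21.4%). DDC rose by 1.72 ± 0.04 and TUBB3 by 1.37 ± 0.07, whereas SYP (synaptophysin) fell by 0.69, and CHGA and INSM1 held at most 1 count in any library.

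Of 26 tested genes of surface targets in prostate cancer, 14 rose (53.8%, against 27.0% of all genes) and 7 fell (26.9%, near the 26.3% of all genes). STEAP1 rose by 0.07 ± 0.03, with overlapping groups. PSCA fell from 22.0, 21.9 and 23.2 CPM to 9.94, 9.39 and 10.5 CPM and GRPR, the bombesin receptor, from 48, 49 and 54 counts to 3, 10 and 11. Of 16 tested prostate and nuclear long noncoding RNAs 7 rose (43.8%) and 4 fell (25%, near the share of all genes). PCA3, a urine marker, fell from 18, 22 and 23 counts to 4, 6 and 7, and ARLNC1 fell by 3.37 on the log2 scale, whereas CRNDE and H19 rose by 1.10 and 0.78. TRPM8, a cold-sensing channel of prostate epithelium, fell from 25.4, 24.7 and 23.3 CPM to 1.37, 1.91 and 2.20 CPM. In drug metabolism and efflux 8 of 17 rose (47.1%, or 5 genes without enzalutamide library B) and 4 fell (23.5%). CYP1A1 rose from 32, 36 and 48 counts to 105, 176 and 158, and the efflux pump ABCC4 fell by 1.88 ± 0.03. CYP3A4, which enzalutamide induces in liver, was not tested, with at most 1 count in DMSO and 2 in enzalutamide.

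Transporters and channels were mixed. Of 251 tested solute carriers 71 rose (28.3%, near the 27.0% of all genes) and 103 fell (41.0%, against 26.3%), with a median of -0.06, and of 62 potassium, calcium and TRP channels 25 rose (40.3%) and 13 fell (21%). KCNMA1, a calcium-activated potassium channel, fell by 2.02 on the log2 scale. All 4 tested metallothioneins, which bind zinc and copper, rose, with a median of 0.74. Circadian clock genes rose in 11 of 23 cases (47.8%) and fell in 3 (13%). Autophagy and lysosome genes rose in 11 of 42 cases (26.2%) and fell in 12 (28.6%), near the 27.0% and 26.3% of all genes, and with total-count scaling 19 rose and 10 fell.

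Abiraterone, which blocks androgen synthesis through CYP17A1, was the panel treatment closest in class, here at 5 µM for 5 days in 3 libraries. The doses differ, so drug and dose cannot be told apart in this contrast. Enzalutamide and abiraterone differed at 3694 genes (19.8%) by edgeR, with 1822 higher in enzalutamide (9.78%) and 1872 lower (10.1%). Of these, 229 differed by at least 1 on the log2 scale, 60 higher and 169 lower. Of the 104 androgen response genes, 50 were lower in enzalutamide than in abiraterone and 14 higher. The direct difference (enzalutamide minus abiraterone, log2) was -0.67 ± 0.05 for KLK3 and -0.85 ± 0.05 for KLK2, and -0.11 ± 0.03 for FKBP5. Further genes below their abiraterone level were TRPM8 (-2.52), CYP1A1 (-2.16), ELOVL2 (-1.21), UGT2B17 (-0.98), FN1 (-0.82) and CDKN1A (-0.63 ± 0.05). MATN2 was among the genes above it (0.53 ± 0.06).

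The amino acid response list differed between the drugs in 1 direction. Its genes are those that ATF4 activates when amino acids run short. Of its 30 tested genes 27 were higher in enzalutamide than in abiraterone and 0 lower by edgeR, against 9.78% and 10.1% of all genes, with a median difference of 0.56. Against DMSO, 7 rose (23.3%, near the 27.0% of all genes) and 11 fell (36.7%, against 26.3%) in enzalutamide, with a median of -0.01 (0.04 with total-count scaling). In abiraterone against DMSO, 25 of the 30 fell and 0 rose, with a median of -0.62. Over all 18625 genes in that contrast, 5050 fell and 4803 rose, with a median of 0.0003. TRIB3, a pseudokinase of this response, was at 71.8, 67.8 and 63.5 CPM in DMSO and at 54.7, 54.7 and 56.6 CPM in enzalutamide, higher than in abiraterone by 0.80 on the log2 scale. PHGDH, which starts serine synthesis, rose from 394, 366 and 345 CPM to 519, 522 and 523 CPM. G2/M genes were higher than in abiraterone in 34 of 54 cases and lower in 2, homologous recombination genes higher in 12 of 37 and lower in 0, and cytosolic ribosomal proteins higher in 61 of 82 and lower in 2. The IGF axis genes IGF1R, IRS1 and IRS2 did not pass the threshold in the direct contrast, with differences of -0.11, 0.15 and 0.00 (adjusted p = 0.454, 0.533 and 0.997 by edgeR), which does not show that they were equal.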

How the data were processed

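C4-2B RNA was measured by stranded, paired-end mRNA sequencing. Per the labels and the study's methods, the authors trimmed reads with Trim Galore, aligned them to GRCh38 with STAR and deposited estimated counts per gene from Salmon as whole numbers, without normalization. Salmon divides reads among near-identical copies, whose values are uncertain. Symbols came from GENCODE (62666 of 63187 IDs matched, and the 521 others held 0.117% to 0.123% of counts in each library). Groups followed the treatment labels. The 3 enzalutamide and 3 DMSO libraries were contrasted within 1 fit of the 21 panel libraries in edgeR 4.0.16 (R 4.3.3): filterByExpr by group, TMM scaling, robust quasi-likelihood tests without covariates, and Benjamini-Hochberg adjustment over 18625 genes. Fold changes against a group with at most 3 counts per library are given as bounds at 3 counts. Each SE was derived from the test, as the absolute log2 fold change divided by the square root of its F statistic.

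The gene lists and the rule for named genes were chosen with earlier results of these data known. Named were the 15 largest rises and 15 largest falls (with 100 or more counts on average in the higher group and no overlap), the 4 largest changes past the threshold in each of 45 lists and any member that the study names, 10 genes fixed by name, the 10 largest gains and losses in CPM per kilobase, and genes with at most 3 counts in every library of a group and at least 30 in every library of the other. Further list members are named as examples chosen after their values were seen. Lists are described by counts and medians, without a set test. The S and G2/M lists came from Seurat 5.3.0. Promoters came from RefSeq (GRCh38.p14), matched by symbol for 12283 tested genes. The code was tested on simulated counts. The alternatives were other scalings (DESeq2 1.42.0 size factors, total counts), other filters, DESeq2's Wald test, a fit of 2 groups, the replicate letter as a block, a fold change threshold, and leaving out each library. Some named genes are not reported here.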

Additional observations from a re-analysis of the deposited data

How the results depend on the processing

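The count of genes that differed between enzalutamide and DMSO lay between 9182 and 9545 when each library was left out in turn and between 9313 and 9984 under the other scalings, filters, tests and fits, against 9919. The contrast with abiraterone gave 2882 to 3178 genes without 1 library and 3589 to 3958 under the other settings, against 3694. With a fold change of at least 1 on the log2 scale as well, 2059 genes differed from DMSO (1310 higher, 749 lower) and 229 from abiraterone (60 higher, 169 lower). Total-count scaling gave 5903 higher and 4081 lower genes and a median shift of 0.07. Counts of members that rose and of members that fell moved by more than 1.5 times in 16 and 12 of 585 cases each, 5 and 3 of them with total-count scaling. Of 585 counts of all members past the threshold in either direction, 3 moved by that much: basal and mesenchymal genes had 5 past the threshold with CPM of at least 1 in 3 libraries and 4 in the fit of 2 groups, against 8, and GABA-A receptor subunits had 2 to 4 without 1 library, against 4. The cause was not tested. Of 585 list medians, 44 moved by more than the median SE of the members of the list, most often with total-count scaling. No named gene past the threshold reversed. A named gene lost its call in 47 of 3036 pairs of a gene and a setting, among them pairs with UGT1A6, KCNS2, HOTAIR, CYP3A43, RSAD2, SLX1B, CDKN1A, BRCA1 and ATM, and PALB2 gained a call with total-count scaling. The same replicate letter in both groups correlated at -0.02 to 0.01 in the deviations from the group means, so no shared letter effect was visible. This cannot show whether libraries of the same letter were handled together. The replicate block gave 9852 genes.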
